A study of Homo sapiens with 12 samples.

Results

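The 9 genes described here encode the classical MHC class II chains and CD74: CD74, HLA-DRA, HLA-DRB1, HLA-DRB5, HLA-DQA1, HLA-DQB1, HLA-DQB2, HLA-DPA1 and HLA-DPB1. They were chosen by name from the 60504 features of the deposited expression table, and all 9 were among the 14391 genes that passed the filter on low values. MHC class II molecules carry peptides to the cell surface for CD4 T cells, and each is a pair of an alpha and a beta chain (HLA-DR, HLA-DQ or HLA-DP). CD74, the invariant chain, binds the newly made pair, fills its groove and steers it to the endosomes, where CD74 is degraded and HLA-DM exchanges the remaining CD74 peptide for others. Their genes share promoter elements bound by RFX, NF-Y and CREB proteins, on which the coactivator CIITA assembles. In the B lineage, class II is made by B cells and is switched off in plasma cells, where the repressor encoded by PRDM1 silences CIITA.

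Polyadenylated RNA was sequenced from 12 libraries in 4 groups of 3 biological replicates, all of TKO cells, whose genotype label is KMS-11 WHSC1(+/-) and whose cell type label is plasma cell. KMS-11 is a human multiple myeloma line with the t(4;14) translocation, which raises the expression of NSD2, and NSD2, formerly WHSC1, is a methyltransferase acting on lysine 36 of histone H3. The group called TKO had no vector, and the groups called WT, D1240A and F1295A carried vectors for NSD2, for NSD2 with the D1240A substitution and for NSD2 with the F1295A substitution, both C-terminal. No treatment was given, every group carries the same genotype label, and the labels do not say whether each line is 1 clone. An empty-vector line was not analysed here, so in any comparison with TKO the expressed NSD2 and the presence of a vector cannot be told apart, whereas the 3 vector lines are matched in this respect. The labels do not say whether the replicates came from separate cultures, so p-values measure only the spread between these libraries. By its title the series is about the C-terminal part of NSD2 and adhesion genes, and class II was not named as a question in the sources used here.

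Values are FPKM (fragments per kilobase of transcript with the mapped total of a library as the unit of depth) after rescaling between libraries, given as mean ± SD over n = 3 libraries unless each library is listed. Changes are differences of log2(FPKM + 0.5), which understate the change of low genes, and a gene was called at a limma adjusted p under 0.05, with Benjamini-Hochberg adjustment over all 14391 tested genes. Read depth is unknown, so no counting error can be given. The libraries held between 11796 and 12240 features at 1 FPKM or more. D1240A replicate 2 stood apart, with a deposited FPKM sum of 2475654 against 839272 to 897546 in the other libraries, most of it structural RNA (1576773 FPKM), and the calls of the 9 genes and of the gene lists in D1240A are therefore also given without it. NSD2 itself measured 60.1 ± 2.26 FPKM in TKO, 190.5 ± 3.88 in WT, 250.6 ± 8.44 in D1240A and 164.1 ± 6.56 in F1295A, and each vector line was above TKO (log2 change 1.66, 2.05 and 1.44, limma adjusted p of 1.5e-10 or less). Among the vector lines D1240A was above WT by 0.39 and F1295A was below WT by 0.22 (limma adjusted p = 5.3e-05 and 0.0138). NSD2 in D1240A without its replicate 2 was above TKO by 2.03 and above WT by 0.37.

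The label of plasma cell was met by 7 of its 10 markers, with group means of 28.4 FPKM or more (TNFRSF17, PRDM1, XBP1, IRF4, JCHAIN, MZB1 and POU2AF1), but SDC1, the surface protein CD138, was at 4.01 ± 0.242 FPKM in TKO and at 0.235 to 0.278 in the vector lines, CD38 at 0.280 to 0.850 and SLAMF7 at 0.486 to 1.80. The summed plasma cell markers ran from 2411 to 2619 FPKM in TKO and from 3892 to 5113 in the vector lines. Of 10 B cell markers 3 passed the filter, MS4A1, PAX5 and CD22 were at or near 0 in every group, and the sum was 4.18 to 4.48 FPKM in TKO and 1.13 to 2.12 in the vector lines. None of 10 dendritic cell and monocyte markers reached 0.5 FPKM in any library, with sums of 0.510 to 0.614 in TKO and 0.176 to 0.369 in the vector lines. The sums of the B cell markers and of the dendritic cell and monocyte markers lie far under the levels of CD74 and HLA-DRA. Whether such cells contributed class II RNA was not tested. The part of the plasma cell markers, which moved in both directions in the comparisons against TKO, was not tested. In bulk RNA, fewer cells making a transcript and less of it per cell cannot be told apart.

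The class II genes lie on chromosome 6 between 32439842 and 33087201, and CD74 on chromosome 5 between 150401637 and 150412929 (GRCh38, GENCODE release 29). Promoter sequence is shown because the 9 genes moved together across the lines and because the shared elements lie there. The sequences are those of the RefSeq promoter table (GRCh38.p14), which runs from 250 bases before to 50 bases after a gene's start and matched 8 of the 9 genes, with no entry for HLA-DRA and 2 for HLA-DPA1; they are the reference, not alleles of KMS-11. Letter patterns were searched for in them, CCAAT on both strands (the core bound by NF-Y, which reads ATTGG on the other strand) and AGNNAC on the gene's strand (letters found within the X box, which RFX binds). CCAAT was held by 34.6% of the 35116 promoters given there and AGNNAC by 64.3%. In 1.63% an AGNNAC was followed by CCAAT or ATTGG after 20 to 30 bases, a spacing chosen after the sequences of these genes were seen. The 85-base windows below are printed 5′ to 3′ on the strand of the gene with the matched letters in capitals, at chr5:150412939-150413023 (minus strand) for CD74, chr6:32589870-32589954 (minus) for HLA-DRB1, chr6:32530353-32530437 (minus) for HLA-DRB5, chr6:32637278-32637362 (plus) for HLA-DQA1, chr6:32666721-32666805 (minus) for HLA-DQB1, chr6:32763596-32763680 (minus) for HLA-DQB2 and chr6:33075831-33075915 (plus) for HLA-DPB1.
CD74: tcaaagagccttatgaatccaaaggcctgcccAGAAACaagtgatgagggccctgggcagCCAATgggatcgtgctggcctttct
HLA-DRB1: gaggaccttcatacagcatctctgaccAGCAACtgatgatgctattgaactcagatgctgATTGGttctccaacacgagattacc
HLA-DRB5: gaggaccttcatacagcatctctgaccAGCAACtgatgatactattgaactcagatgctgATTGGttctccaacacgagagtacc
HLA-DQA1: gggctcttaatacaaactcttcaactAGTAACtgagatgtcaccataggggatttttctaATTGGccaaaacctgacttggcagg
HLA-DQB1: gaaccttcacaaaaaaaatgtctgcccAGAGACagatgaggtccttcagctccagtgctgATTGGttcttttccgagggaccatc
HLA-DQB2: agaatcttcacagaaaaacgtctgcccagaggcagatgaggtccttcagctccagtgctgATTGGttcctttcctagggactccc
HLA-DPB1: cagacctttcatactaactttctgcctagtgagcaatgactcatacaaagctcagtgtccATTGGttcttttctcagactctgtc
In CD74 the 2 patterns were 22 bases apart, and in HLA-DRB1, HLA-DRB5, HLA-DQA1 and HLA-DQB1 they were 27 or 28 bases apart. HLA-DQB2 and HLA-DPB1 held ATTGG without an AGNNAC at that spacing, and neither HLA-DPA1 entry held CCAAT on either strand. The windows of HLA-DRB1 and HLA-DRB5 differed at 2 of 85 bases and those of HLA-DQB1 and HLA-DQB2 at 17 of 85. A match is only a description of these letters, and binding was not measured.

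CD74 mRNA was highest in TKO, lowest in WT and between them in both mutants. It measured 4812, 4697 and 4927 FPKM for TKO, 2676, 2577 and 2623 for WT, 4087, 3949 and 4004 for D1240A, and 3201, 3189 and 3299 for F1295A. No library of one group overlapped another group. CD74 ranked between 14 and 18 among 19664 protein-coding genes in TKO and between 44 and 46 in WT, so it stayed one of the most abundant transcripts in each line. WT fell by 0.87 from TKO (limma adjusted p = 1.4e-09), F1295A by 0.58 (5.9e-08) and D1240A by 0.26 (4.4e-05). Against WT, CD74 was higher by 0.61 in D1240A (95% interval 0.54 to 0.68) and by 0.30 in F1295A (0.23 to 0.37).

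HLA-DRA, the single alpha chain of HLA-DR, was lowest in WT, higher in F1295A and highest in D1240A and TKO. Its libraries read 1634, 1749 and 1783 FPKM for TKO, 1103, 1132 and 1089 for WT, 1836, 1697 and 1745 for D1240A, and 1375, 1418 and 1389 for F1295A. The D1240A and TKO libraries overlapped, and every other pair of groups was separate. HLA-DRB1, the main DR beta chain, measured 286.0, 292.6 and 296.4 FPKM for TKO, 150.0, 163.7 and 150.7 for WT, 304.6, 278.7 and 289.2 for D1240A, and 217.9, 227.9 and 223.7 for F1295A. WT was at 53.1% of TKO for HLA-DRB1 and at 64.4% for HLA-DRA (log2 change of -0.91 and -0.63, limma adjusted p = 7.5e-09 and 1.1e-07). HLA-DRB5, a further DR beta gene carried on some haplotypes, was at 43.7 ± 1.88 FPKM in TKO, 20.9 ± 0.595 in WT, 39.9 ± 4.52 in D1240A and 30.7 ± 0.228 in F1295A. The longest transcripts of HLA-DRB1 and HLA-DRB5 shared 102 of their 50-base words, 8.64% of those of HLA-DRB1, so reads there could be assigned to either gene, and the same applies to HLA-DQB1 with HLA-DQB2 (4.63%) and to HLA-DQA1 with HLA-DQA2 (9.53%). The genome build was the GRCh38 reference. The class II alleles of KMS-11, and whether it carries HLA-DRB5, were not examined.

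The HLA-DQ genes were lower in level than HLA-DRA and HLA-DRB1. HLA-DQB1 and HLA-DQB2 had the largest log2 decreases of the 9 genes from TKO to WT. HLA-DQA1 and HLA-DRB5 followed (-1.05 each), with HLA-DRB5 in WT at 47.7% of TKO, although differences between genes were not tested. HLA-DQA1, the DQ alpha chain, measured 112, 118 and 121 FPKM for TKO, 57.8, 58.8 and 52.3 for WT, 119, 101 and 129.9 for D1240A, and 92.5, 94.3 and 89.1 for F1295A. HLA-DQB1, its beta chain, measured 68.4, 72.5 and 74.8 FPKM for TKO, 33.4, 30.7 and 28.98 for WT, 57.6, 59.5 and 70.3 for D1240A, and 45.3, 45.1 and 50.6 for F1295A. For both genes all 3 WT libraries lay under every other library, and D1240A spread more widely than the other groups. HLA-DQB2, a second DQ beta gene of lower expression, measured 9.24, 8.84 and 9.80 FPKM for TKO, 3.25, 4.73 and 3.36 for WT, 9.45, 7.89 and 10.9 for D1240A, and 5.49, 7.93 and 7.39 for F1295A. WT fell from TKO by 1.05, 1.20 and 1.21 on the log2 scale for HLA-DQA1, HLA-DQB1 and HLA-DQB2, that is to 48.0%, 43.2% and 40.7% of the TKO level. HLA-DQB1 overlaps the antisense gene HLA-DQB1-AS1 over 850 bases, and the latter was at 0.0395 to 0.405 FPKM in the 4 groups.

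The HLA-DP genes were lowest in WT and highest in D1240A. HLA-DPA1, the DP alpha chain, measured 257, 260.3 and 274 FPKM for TKO, 189, 198 and 183 for WT, 324, 329 and 306 for D1240A, and 247, 246 and 244 for F1295A. HLA-DPB1, its beta chain, measured 293, 303 and 322 FPKM for TKO, 189, 212 and 196 for WT, 385, 323 and 331 for D1240A, and 263, 272 and 273 for F1295A. The D1240A libraries of both genes lay above all other libraries. WT fell from TKO by 0.47 for HLA-DPA1 and 0.62 for HLA-DPB1, and the interval for HLA-DPA1 (-0.55 to -0.39) did not overlap that for HLA-DQA1 (-1.22 to -0.88). The annotated spans of these 2 genes, introns included, overlap by 4850 bases on opposite strands, and the overlap of their exons was not measured. How the counting treated strand is not given in the labels, so whether reads from that stretch were mixed is not known.

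**Figure D1:**
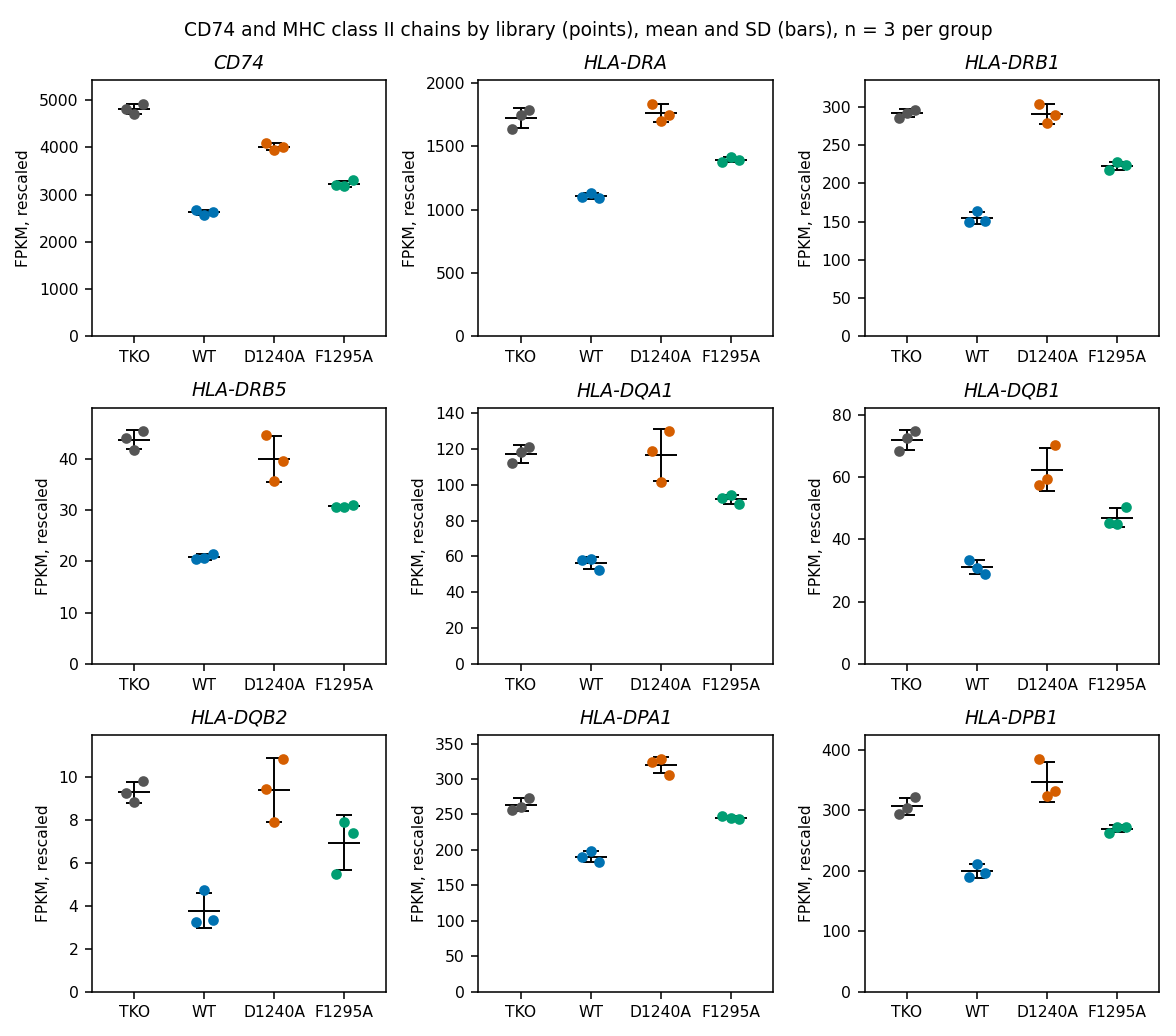
Level of each of the 9 genes in rescaled FPKM (vertical axes, linear and from 0) by group (horizontal axes), with each library as a point and the mean and SD of 3 libraries as bars. WT is the lowest group in every panel, the D1240A libraries overlap or exceed those of TKO except for CD74, where D1240A measured 4013 against 4812 FPKM, and F1295A lies between WT and D1240A.

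Compared with TKO, the WT line had less of all 9 transcripts. All 9 were called lower, against 23.9% of the tested genes called lower and 49.7% called in either direction, so a call as such was common in this comparison. The 9 genes stood at 40.7% to 72.1% of TKO, with a median log2 change of -0.91 where the median over all tested genes was -0.01. The 3 WT libraries were under the 3 TKO libraries for 9 of 9 genes, as for 29.8% of all tested genes. In F1295A all 9 were also called lower than TKO, where 21.8% of tested genes were, but they were at 65.4% to 93.2% of TKO with a median of -0.39 (all genes -0.00). CD74, HLA-DRA, HLA-DRB1, HLA-DRB5, HLA-DQA1 and HLA-DQB1 fell by 0.30 to 0.61 in F1295A. HLA-DPA1 (-0.10), HLA-DPB1 (-0.18) and HLA-DQB2 (-0.41) passed narrowly, with limma adjusted p of 0.0468, 0.0336 and 0.0497. Of the 12 libraries left out in turn, the call was lost for HLA-DPA1 without 7, for HLA-DPB1 without 5 and for HLA-DQB2 without 8, with adjusted p up to 0.171, 0.120 and 0.196. These included TKO replicates 2 and 3 and F1295A replicates 1 and 3 for all 3 genes, F1295A replicate 2 for both DP genes, WT replicate 1 and D1240A replicate 1 for HLA-DPA1 and HLA-DQB2, and TKO replicate 1 and WT replicate 3 for HLA-DQB2 alone.

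D1240A did not show the decrease of WT. Of the 9 genes 4 were called against TKO, 2 higher and 2 lower, beside 44.5% of all tested genes in either direction (23.3% higher, 21.2% lower), and the median was -0.00 (all genes 0.01). CD74 was at 83.4% of TKO, and HLA-DPA1 was at 121% (log2 change 0.28, 95% interval 0.20 to 0.36, limma adjusted p = 9.7e-05). HLA-DPB1 (0.17, adjusted p = 0.0434) and HLA-DQB1 (-0.21, adjusted p = 0.0492, libraries overlapping) passed narrowly. The other 5 were not called, with 95% intervals of -0.06 to 0.12 for HLA-DRA, -0.09 to 0.08 for HLA-DRB1, -0.28 to 0.01 for HLA-DRB5, -0.18 to 0.16 for HLA-DQA1 and -0.34 to 0.35 for HLA-DQB2. Those intervals leave room for a change of up to about that size and do not show equality. Without D1240A replicate 2 the changes were -0.25 for CD74, 0.26 for HLA-DPA1, 0.22 for HLA-DPB1 and -0.17 for HLA-DQB1, and the last was no longer called (adjusted p = 0.140). The count of 4 became 2 without TKO replicate 2, F1295A replicate 1 or F1295A replicate 2, in each case CD74 and HLA-DPA1, since the calls of HLA-DQB1 and HLA-DPB1 were lost. The call of HLA-DQB1 was also lost without TKO replicate 3, WT replicate 2 or D1240A replicate 1 (adjusted p up to 0.166), and that of HLA-DPB1 without TKO replicate 1, WT replicate 3, D1240A replicate 1 or F1295A replicate 3 (up to 0.147). HLA-DRB5 was called lower without D1240A replicate 1 (-0.22, adjusted p = 0.00586). Comparisons with TKO share the same 3 TKO libraries and those with WT the same 3 WT libraries, and the values above are each comparison's own.

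**Figure D2:**
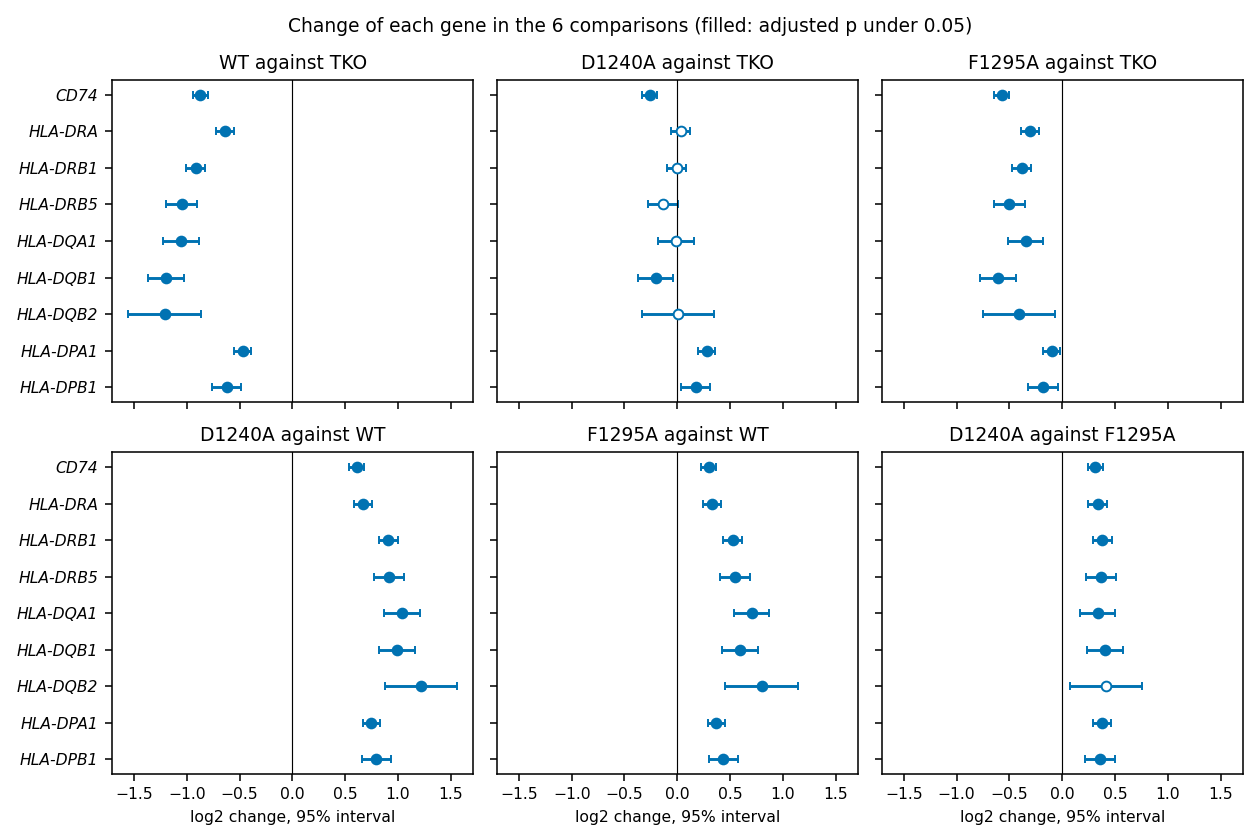
Log2 change (horizontal axes) with its 95% interval for each of the 9 genes (rows) in the 6 comparisons (panels), filled where the limma adjusted p was under 0.05. All 9 points lie left of 0 for WT against TKO (-1.21 to -0.47) and right of 0 for D1240A and F1295A against WT.

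Against WT, the vector-matched line, both mutants had more of all 9 transcripts. In D1240A 9 of 9 were called higher, where 8.21% of tested genes were, at 153% to 249% of WT with a median log2 change of 0.91 (all genes 0.01). The changes ran from 0.61 for CD74 and 0.67 for HLA-DRA to 0.99 for HLA-DQB1, 1.04 for HLA-DQA1 and 1.22 for HLA-DQB2, with limma adjusted p between 3.1e-07 and 0.000334. Without D1240A replicate 2 all 9 were still called, at 0.62 to 1.33. In F1295A 9 of 9 were called higher, where 0.896% of tested genes were, at 123% to 184% of WT with a median of 0.53 (all genes -0.00). The 9 genes were thus among 129 genes called higher, a number that was 61 without WT replicate 1, 64 without WT replicate 3, 58 without F1295A replicate 2 and 73 without F1295A replicate 3, and in the order of their log2 change they took places between 9 (HLA-DQB2) and 73 (CD74). HLA-DRB1 rose by 0.53 (adjusted p = 7.3e-05), HLA-DQA1 by 0.70 (0.000825), HLA-DPA1 by 0.37 (0.000661), HLA-DRA by 0.33 (0.00147) and CD74 by 0.30 (0.000825). HLA-DQB2 had the largest change (0.80) and the weakest call (0.0207), which was lost without WT replicate 1 or 3 or F1295A replicate 2 or 3 (adjusted p up to 0.0946). In both mutants all 3 libraries lay above all 3 WT libraries for 9 of 9 genes, as for 16.7% (D1240A) and 10.3% (F1295A) of all tested genes.

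In the values as deposited, without rescaling, D1240A replicate 2 keeps its offset (log2 scaling factor of -0.30, against -0.0049 to 0.064 in the other libraries). On that scale the median of all genes shifted by -0.15 in D1240A against TKO and by -0.12 in D1240A against WT, 9 of 9 members were still called higher in D1240A than in WT, but 3 were in F1295A against WT and 0 in D1240A against F1295A. Against TKO, the 2 genes then called in D1240A, CD74 and HLA-DQB1, were both lower, and HLA-DPA1 was not called (0.13, adjusted p = 0.210). With that library left out, an alternative added after the data were seen, the unscaled values gave 9, 9 and 8 called members in those 3 comparisons.

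**Figure D3:**
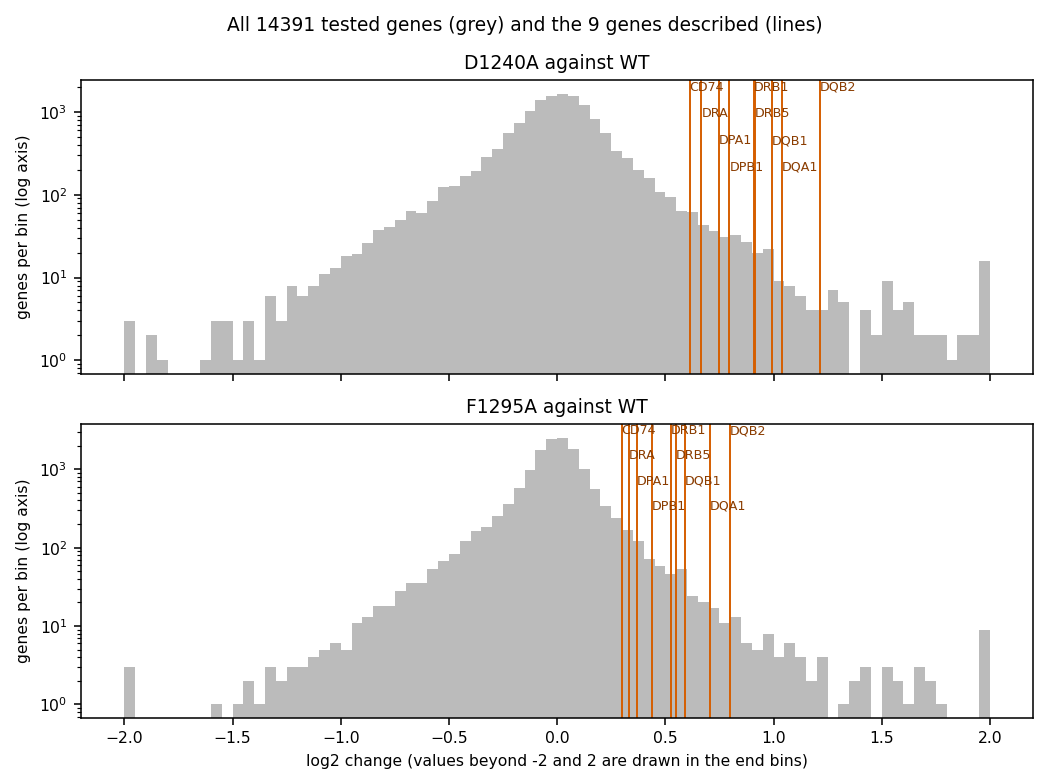
Number of tested genes per bin of log2 change (vertical axes, log scale) for D1240A against WT and F1295A against WT, with the 9 genes marked as lines. All 9 lie right of 0, from 0.61 to 1.22 in D1240A and from 0.30 to 0.80 in F1295A, while the median of all genes is 0.01 and -0.00.

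The mutants also differed from each other. Of the 9 genes 8 were called higher in D1240A than in F1295A, beside 3% of tested genes, and the changes were alike in size, from 0.31 for CD74 to 0.42 for HLA-DQB2, with a median of 0.37 (all genes 0.00). The 432 tested genes called higher became 210 without D1240A replicate 2, 220 without D1240A replicate 3, 173 without F1295A replicate 2 and 211 without F1295A replicate 3, with 6 to 8 of the 9 genes called in each case. HLA-DPA1 had the smallest adjusted p (0.38, limma adjusted p = 0.000293), followed by CD74 (0.000334) and HLA-DRB1 (0.000459). HLA-DQB2 was not called (95% interval 0.07 to 0.76, adjusted p = 0.141), and its libraries overlapped. Without D1240A replicate 2 the same count of 8 was called at 0.32 to 0.44, with HLA-DQB2 at 0.53 and not called (adjusted p = 0.117). The call of HLA-DQA1 (0.34, adjusted p = 0.0297) was lost without D1240A replicate 1 or 3 or any 1 of the F1295A libraries (up to 0.0968), and that of HLA-DQB1 without F1295A replicate 2 (0.0604). The order of the lines in class II was therefore WT, F1295A and then D1240A with TKO, with CD74 and, narrowly, HLA-DQB1 called lower and HLA-DPA1 and, narrowly, HLA-DPB1 called higher in D1240A than in TKO, whereas NSD2 itself stood in the order TKO, F1295A, WT and D1240A.

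The levels of the 9 genes varied together across the libraries, with small shifts in proportion. Over the 36 pairs of the 9 genes the Pearson correlation of log2 levels across the 12 libraries ran from 0.760 to 0.993 with a median of 0.942, a description of libraries that fall into 4 groups and share their scaling. The ratio of HLA-DPA1 to HLA-DPB1 FPKM stayed between 0.842 and 1.02 in the 12 libraries. CD74 exceeded HLA-DRA 2.80-fold ± 0.133 in TKO and 2.37 ± 0.0824, 2.28 ± 0.0516 and 2.32 ± 0.0636 in WT, D1240A and F1295A, and the TKO libraries (2.69 to 2.95) lay above all others (2.23 to 2.43). HLA-DRA exceeded the sum of HLA-DRB1 and HLA-DRB5 6.31-fold ± 0.166 in WT, against 5.13 ± 0.159 in TKO, 5.32 ± 0.0709 in D1240A and 5.49 ± 0.0406 in F1295A. The 3 WT libraries (6.14 to 6.47) lay above the other 9 (4.95 to 5.54). The D1240A ratios in the libraries other than replicate 2 were 2.23 and 2.29 for CD74 to HLA-DRA and 5.26 and 5.31 for HLA-DRA to the DR beta chains. With 3 libraries against 3, an exact permutation test of such a ratio cannot go below 0.10, and none was run. How far KMS-11 alleles that differ from the reference affect these ratios, or the shares and order of genes below, was not tested.

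The sum of the 8 class II chains was 2825 ± 113 FPKM in TKO, 1764 ± 50.4 in WT, 2945 ± 126 in D1240A and 2308 ± 32.0 in F1295A. HLA-DR made up 72.8% of it in TKO and WT, 71.0% in D1240A and 71.4% in F1295A. HLA-DQ made up 7.02% ± 0.0130 in TKO and 5.16% ± 0.251 in WT, with 6.41% ± 0.708 in D1240A and 6.32% ± 0.0475 in F1295A. HLA-DP took 20.2% in TKO and 22.0% to 22.6% in the vector lines. The WT line thus had both the smallest sum and the smallest DQ share, and its libraries (4.91% to 5.41%) did not overlap those of the other lines in that share. The 2 D1240A libraries other than replicate 2 had sums of 3080 and 2922 FPKM and DQ shares of 6.04% and 7.22%. In level, CD74 and HLA-DRA came first and second in every line, HLA-DPB1, HLA-DRB1 and HLA-DPA1 followed, and HLA-DQA1, HLA-DQB1, HLA-DRB5 and HLA-DQB2 came after them in that order. Among the middle 3, the libraries of HLA-DRB1 lay above those of HLA-DPA1 in TKO and below them in WT, D1240A and F1295A. HLA-DPB1 overlapped HLA-DRB1 in TKO and HLA-DPA1 in WT and D1240A, while in F1295A all 3 were separate, in the order HLA-DPB1, HLA-DPA1 and HLA-DRB1.

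**Figure D4:**
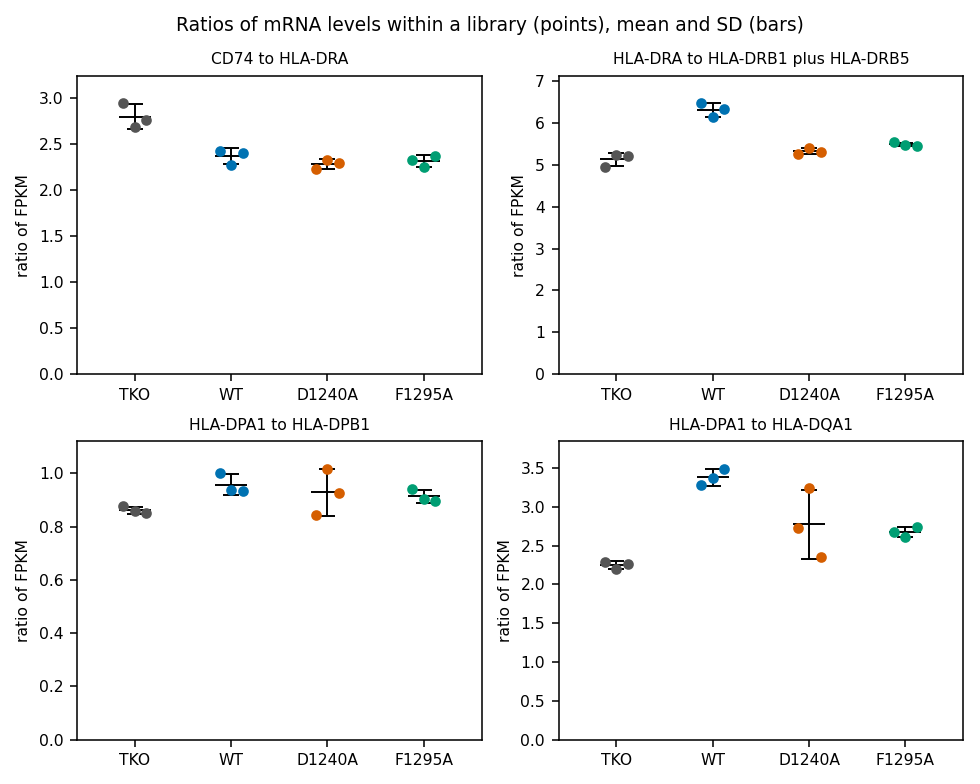
Ratios of FPKM between chains within each library (vertical axes, from 0) by group, as points with the mean and SD of 3 libraries. TKO is highest for CD74 to HLA-DRA (2.80) and WT is highest for HLA-DRA to the DR beta chains (6.31) and for HLA-DPA1 to HLA-DQA1 (3.38).

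CIITA, the coactivator that switches on class II promoters, was at 71.0 ± 2.20 FPKM in TKO, 32.3 ± 0.343 in WT, 65.1 ± 2.99 in D1240A and 40.3 ± 2.60 in F1295A. Its group means stood in the order of CD74. WT fell from TKO by 1.12 (limma adjusted p = 4.6e-09) and F1295A by 0.81 (8.7e-08), and D1240A was not called (-0.12, 0.0529). Against WT, CIITA was higher by 1.00 in D1240A (4.1e-07) and by 0.32 in F1295A (0.00551), and it was higher in D1240A than in F1295A by 0.69 (3.6e-05). CIITA was, without D1240A replicate 2, called lower in D1240A than in TKO (-0.16, 0.0240), and the other 2 calls held (0.96 against WT and 0.65 against F1295A). RFX5, a subunit of the RFX complex on the X box, was at 288 ± 5.11 FPKM in TKO, 203 ± 5.41 in WT, 242 ± 4.93 in D1240A and 217 ± 13.8 in F1295A, and the change of F1295A from WT was not called (0.10, 0.291). RFXANK, another RFX subunit, was higher in each vector line than in TKO (0.28 to 0.39), RFXAP (2.33 to 2.71 FPKM) was called in no comparison, and nor was NFYA, the subunit of NF-Y that contacts CCAAT. NFYB (-0.18), NFYC (-0.11) and CREB1 (-0.26) were called lower in WT than in TKO and in no other comparison. For CREB1 the libraries overlapped, at 17.7, 24.0 and 18.7 FPKM in WT and 23.9 to 24.3 in TKO.

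Of all 14 regulators, not all of them named here and listed with the earlier results known, 4 were higher and 8 lower in WT than in TKO, 4 and 3 in D1240A and 3 and 5 in F1295A, with medians of -0.16, -0.07 and -0.11. PRDM1, which encodes the repressor of CIITA in plasma cells, was at 28.4 ± 0.902 FPKM in TKO, 46.1 ± 1.69 in WT, 39.7 ± 0.684 in D1240A and 41.2 ± 0.619 in F1295A, and was lower in each mutant than in WT (-0.21 and -0.16, limma adjusted p = 0.00186 and 0.0412). Against WT, 5 regulators were higher and 2 lower in D1240A (median 0.09), and 1 was higher and 2 lower in F1295A (median 0.04). The one higher in F1295A was CIITA, and the lower ones were PRDM1 and IRF4, another plasma cell factor. Of all tested genes, 1181 were called higher and 1573 lower in D1240A than in WT, and 129 and 261 in F1295A. Against TKO, 7157 of the 14391 tested genes were called in either direction in WT, 6404 in D1240A and 6574 in F1295A. SPIB, an ETS factor of B cells, was at 34.7 ± 1.33 FPKM in TKO, 20.7 ± 1.99 in WT, 31.1 ± 1.16 in D1240A and 21.8 ± 2.28 in F1295A, and IRF1, an interferon-responsive activator, at 36.1 ± 1.18, 22.6 ± 0.902, 28.8 ± 1.65 and 23.1 ± 0.311. Both were called higher in D1240A than in WT and not in F1295A. They were still called without D1240A replicate 2 (0.57 and 0.30), the regulators' count against WT was again 5 higher and 2 lower, and against TKO it was 4 and 4. IRF8, a factor of B cells and dendritic cells, was lower in all 3 vector lines, at 11.97 ± 0.304 FPKM in TKO and 2.93 to 3.20 in the vector lines.

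**Figure D5:**
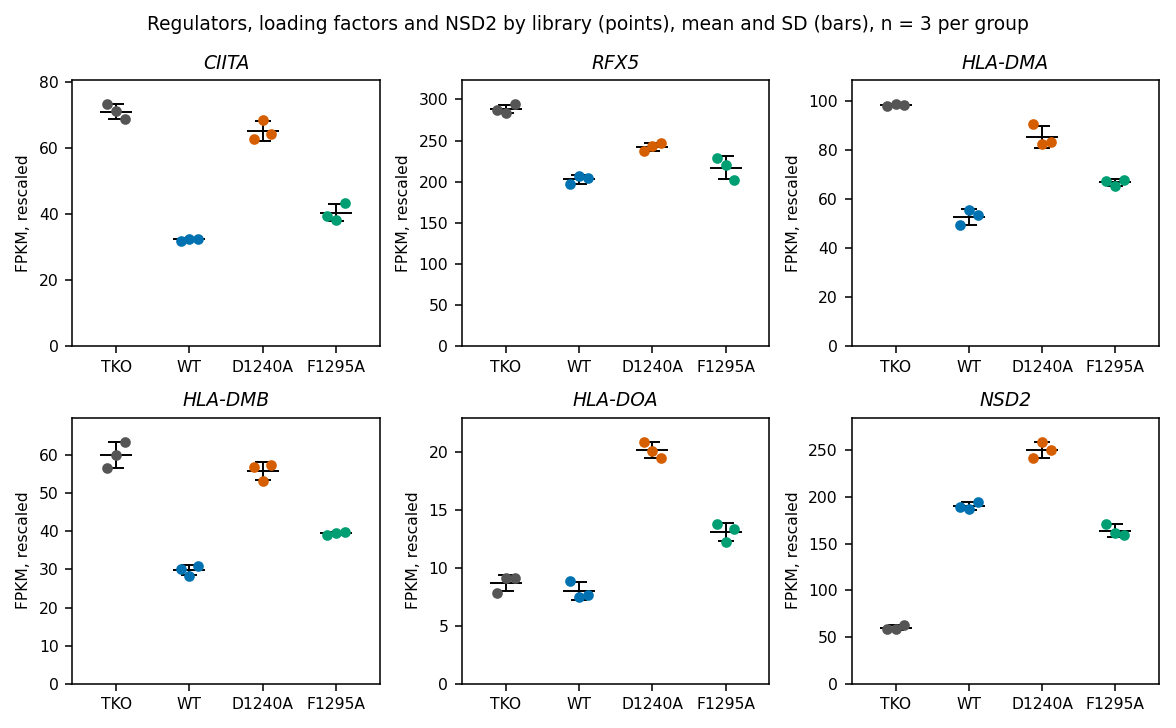
Level in rescaled FPKM (vertical axes, from 0) of CIITA, RFX5, HLA-DMA, HLA-DMB, HLA-DOA and NSD2 by group, with each library as a point and the mean and SD as bars. CIITA, HLA-DMA and HLA-DMB are lowest in WT, HLA-DOA is highest in D1240A (20.1 FPKM), and NSD2 follows another order, with its lowest level in TKO.

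Among the genes that load and process class II, HLA-DMA and HLA-DMB, the chains of the peptide exchanger HLA-DM, moved in the direction of the 9 genes. HLA-DMA was at 98.5 ± 0.244 FPKM in TKO, 52.7 ± 3.09 in WT, 85.4 ± 4.46 in D1240A and 66.9 ± 1.42 in F1295A. HLA-DMB was at 60.1 ± 3.46, 29.8 ± 1.35, 55.9 ± 2.33 and 39.5 ± 0.318. WT was lower than TKO by 0.90 and 1.00, D1240A was higher than WT by 0.69 and 0.90, and F1295A was higher than WT by 0.34 and 0.40 (limma adjusted p of 0.00274 or less). HLA-DOA, a chain of HLA-DO, which restrains HLA-DM, had another pattern: 8.68 ± 0.718 FPKM in TKO, 7.99 ± 0.765 in WT, 20.1 ± 0.682 in D1240A and 13.1 ± 0.788 in F1295A. It was not called between WT and TKO (-0.11, 0.241) and was higher in D1240A than in TKO by 1.17 (2.2e-07). The changes from WT in D1240A without its replicate 2 were 0.72 for HLA-DMA and 0.93 for HLA-DMB, and that of HLA-DOA from TKO was 1.17, all still called. HLA-DOB, its partner chain, was at 0.614 to 0.766 FPKM and was called in no comparison.

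Of the 15 loading and processing genes, 3 were higher and 7 lower in WT than in TKO, 6 and 4 in D1240A against WT, and 4 and 1 in F1295A against WT, with medians of -0.11, 0.00 and 0.00. Over all 14391 tested genes, 3719 were called higher and 3438 (23.9%) lower in WT than in TKO. Against WT, 1181 (8.21%) were higher and 1573 lower in D1240A, and 129 (0.896%) and 261 in F1295A. Without D1240A replicate 2, 5 were higher and 3 lower in D1240A than in WT, with the calls of CTSL and SPPL2A lost. The 4 higher in F1295A than in WT were HLA-DMA, HLA-DMB, HLA-DOA and CD82, a tetraspanin of class II compartments, which was at 28.4 ± 1.78 FPKM in TKO, 6.97 ± 0.223 in WT, 13.9 ± 0.198 in D1240A and 9.11 ± 0.125 in F1295A. The proteases did not all share that order. SPPL2A was at 27.4 ± 0.598 FPKM in TKO, 22.1 ± 1.31 in WT, 25.7 ± 1.15 in D1240A and 22.1 ± 1.39 in F1295A, so only F1295A departed from it. CTSB was at 94.6 ± 0.705 FPKM in TKO, 61.9 ± 1.76 in WT, 54.8 ± 2.83 in D1240A and 57.8 ± 2.64 in F1295A. CTSS, which trims CD74 in the endosome, was at 103 ± 1.89 FPKM in TKO, 136.5 ± 4.41 in WT, 179 ± 11.2 in D1240A and 156 ± 6.64 in F1295A, higher than TKO in each vector line. LGMN, an asparaginyl endopeptidase, was at 17.0 ± 0.556, 12.2 ± 0.567, 7.48 ± 0.525 and 8.62 ± 0.559, and was lower in both mutants than in WT (-0.67 and -0.48). IFI30, a lysosomal thiol reductase, was called in no comparison, nor was MARCH1, a ubiquitin ligase that removes class II from the surface.

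The class I pathway, which presents peptides to CD8 T cells and shares activators with class II, moved less. Of its 15 genes 9 were lower and 0 higher in WT than in TKO (median -0.21), 5 were higher and 0 lower in D1240A than in WT (median 0.08), and 2 were higher and 0 lower in F1295A than in WT (median 0.08). Those 2 were HLA-E and HLA-B (0.20 each, limma adjusted p = 0.00297 and 0.00546). Of all tested genes, 23.9% were called lower in WT than in TKO. Against WT, 8.21% of all tested genes were called higher in D1240A and 0.896% in F1295A. Again 5 of the 15 were higher and 0 lower in D1240A than in WT when D1240A replicate 2 was left out. TAP1, a subunit of the peptide transporter, was at 62.2 ± 1.16 FPKM in TKO, 47.0 ± 0.810 in WT, 57.2 ± 0.962 in D1240A and 50.2 ± 0.454 in F1295A. B2M, the light chain of class I, was at 4202 ± 120.2, 4065 ± 124, 4214 ± 107 and 4305 ± 82.4 and was called in no comparison.

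Neighbouring genes were examined within 500 kb of the class II span on chromosome 6 and of CD74 on chromosome 5. On chromosome 6, 42 of 57 protein-coding neighbours were tested, and 4 were called higher and 0 lower in F1295A than in WT. These 4 were HLA-DOA, HLA-DMB, HLA-DMA and HLA-DQA2, all of them class II genes. Without 10 HLA and antigen-presentation genes, a division made after the values were seen, 32 remained. The 10 include the 4 genes called in F1295A against WT, so the count of 0 for the 32 there was fixed by the division. Over all 42, 8 were higher and 5 lower in D1240A than in WT (median 0.04), 4 and 0 in F1295A than in WT (0.07), and 7 and 12 in WT than in TKO (-0.08). Of the 32, 3 were higher and 5 lower in D1240A than in WT (median 0.01), 0 and 0 in F1295A than in WT (median 0.05), and 7 higher and 5 lower in WT than in TKO (median -0.02). For comparison, 8.21% of all tested genes were called higher in D1240A than in WT and 0.896% in F1295A than in WT. In WT against TKO 23.9% were called lower and 49.7% in either direction, so calls were common there. Around CD74, 10 of 20 neighbours were tested, and 1 was higher and 1 lower in D1240A than in WT (SYNPO, 0.88, and TCOF1, -0.15). Without D1240A replicate 2, 8 of the 42 were higher and 2 lower in D1240A than in WT, and of the 10 only SYNPO was called. None of the 10 was called between F1295A and WT, and 5 were higher and 2 lower in WT than in TKO, with a median of 0.30 where CD74 fell.

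Outside the 9 genes, the tested genes whose log2 levels were most like those of HLA-DRA over the 12 libraries were LCP1 (Pearson r = 0.990), NQO1 (0.985), HLA-B (0.982), PLEKHO1 (0.982) and HLA-DMB (0.979). LCP1, an actin-bundling protein of leukocytes, was at 106 ± 3.28 FPKM in TKO, 66.1 ± 1.06 in WT, 116 ± 3.77 in D1240A and 88.0 ± 1.98 in F1295A. Those most like CD74 were TGFBR2 (0.991), PDE4DIP (0.990), TAP1 (0.990), DCLK2 (0.989) and RASSF4 (0.988). TGFBR2, a receptor of TGF-beta, was at 7.03 ± 0.141 FPKM in TKO, 3.84 ± 0.126 in WT, 5.87 ± 0.281 in D1240A and 4.56 ± 0.118 in F1295A. The 12 points fall into 4 groups, so these coefficients largely describe the order of 4 group means. Within groups, some libraries held most of the 9 genes on one side of the group's mean and others were split. TKO replicate 3 was above its group's mean for 9 of 9 genes and D1240A replicate 1 for 8, while D1240A replicate 2 and WT replicate 3 were below for 8. TKO replicate 2 was above for 4 and below for 5, and F1295A replicate 2 above for 5 and below for 4. The share of all tested genes above or below the mean in each library was not computed, so these counts are a description only.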

How the data were processed

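RNA was measured in 12 libraries, 3 in each of 4 groups, grouped by their labels. Per the submitters' processing notes, the software was Trimmomatic 0.36, FastQC 0.11.4, STAR 2.7.9a, RSEM 1.3.1 and DESeq2, and the genome build was GRCh38. The authors deposited 1 FPKM value per feature and library. That unit was inferred from the values and tools, and neither the annotation release nor the strand setting is given in those notes or the labels. FPKM are not counts and keep no depth, so no count test was run.

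For the values reported, 7089 structural RNA features were left out, and libraries were scaled to one another by trimmed means of log2 ratios, with 30% cut from either side and with genes whose mean reached 1 FPKM. The filter kept the 14391 genes that reached 0.5 FPKM in 3 libraries or more. A single limma model (version 3.58.1, R 4.3.3) took log2(FPKM + 0.5) of the 12 libraries, group being its only term, with a variance trend. Adjusted p-values are Benjamini-Hochberg over all tested genes in each of the 6 comparisons, and the threshold was 0.05. Rescaling fixes each library's centre, so a change shared by all genes cannot be seen. The fit was tested on simulated data.

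The 9 genes, the gene lists and the rule for named genes were chosen with earlier results of these data known. Named were the 9 genes, genes of the regulator and loading lists (1 of the regulators is not reported here), the class I genes and neighbours of smallest adjusted p by comparison, NSD2, and the 5 genes (mean of 2 FPKM or more) outside the 9 that were most correlated with HLA-DRA and with CD74. B2M, HLA-DQA2 and HLA-DQB1-AS1 were named after their values were seen. T cell and NK cell markers (2 of 10 tested) and stroma markers (3 of 8 tested) summed to 1.37 to 2.85 and 2.24 to 5.40 FPKM. Names and positions come from GENCODE release 29, which holds 56996 of the 60504 identifiers. Alternatives were other scalings, filters, pseudocounts and fits, structural RNAs kept, a minimum fold, a replicate block and each library left out; values of the gene lists without D1240A replicate 2 were tabulated after the data were seen. Tables were made in Python 3.11.15 with pandas 2.3.3, numpy 2.4.6 and scipy 1.17.1, and plots with matplotlib 3.10.9.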

Additional observations from a re-analysis of the deposited data

How the results depend on the processing

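All 9 genes were called in WT against TKO and in D1240A against WT under each alternative, except that with a fold of at least 1.5 as well 8 were in WT against TKO. The number of called genes moved elsewhere. In D1240A against TKO (4) it was 2 with the values as deposited (CD74 and HLA-DQB1, both lower), with no filter, with structural RNAs kept, with a replicate block and with only the compared groups in the fit, and 0 with a fold of at least 1.5. In F1295A against TKO (9) it was 6 as deposited, 6 with no filter, 8 with pseudocount 0.1, 8 with structural RNAs kept and 1 with that fold. In F1295A against WT (9) it was 3 as deposited, 8 with no filter, 8 with only the compared groups and 3 with that fold, and in D1240A against F1295A (8) it was 0 as deposited, 7 with no filter, 4 with only the compared groups and 0 with that fold. Leaving out each library gave 9 and 9 in WT against TKO and D1240A against WT, 2 to 4 in D1240A against TKO, 6 to 9 in F1295A against TKO, 8 to 9 in F1295A against WT and 6 to 8 in D1240A against F1295A. All signs that reversed were in D1240A against TKO, for genes not called: as deposited HLA-DRA (-0.12) and HLA-DQB2 (-0.14), as deposited without D1240A replicate 2, added after the data were seen, HLA-DQA1 (0.039), and, leaving out each library, HLA-DRA (-0.0069 to 0.059), HLA-DRB1 (-0.038 to 0.027), HLA-DQA1 (-0.092 to 0.088) and HLA-DQB2 (-0.098 to 0.12). The cause was not tested. Over all tested genes, the called number fell from 390 to 89 in F1295A against WT and from 877 to 63 in D1240A against F1295A as deposited, and to 379 in the latter without D1240A replicate 2. Whether libraries of the same number in the labels are paired was not settled. None of 18 same-numbered pairs had deviations correlated above 0.1 (-0.0531 to 0.0851), but 9 of 12 libraries correlated best with their own number. With the replicate block the counts were 9, 2, 6, 9, 9 and 7 in the order WT, D1240A and F1295A against TKO, D1240A and F1295A against WT, and D1240A against F1295A. Depth is unknown, so the limit for a low gene such as HLA-DQB2 is seen only in its spread.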

Other observations

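HLA-DQA2, a DQ alpha gene beside HLA-DQA1 and not among the 9 genes, was looked at after its values were seen. It measured 53.1 ± 2.7 FPKM in TKO, 31.1 ± 2.69 in WT, 55.1 ± 4.30 in D1240A and 46.1 ± 2.27 in F1295A (SD, n = 3). It was lower in WT than in TKO (log2 change -0.76, limma adjusted p = 3.4e-06) and higher than WT in D1240A (0.81, 2.3e-05) and in F1295A (0.56, 0.00217). The difference between D1240A and F1295A was not called (0.25, 0.0593), but was without D1240A replicate 2 (0.32, 0.0390). Its longest transcript shares 147 of its 50-base words with that of HLA-DQA1 (9.97%), so reads there could be assigned to either gene, and the share of such reads was not tested. The class II pseudogenes HLA-DRB9, HLA-DQB3, HLA-DPA2 and HLA-DPA3 were listed at 0 in all 12 libraries. HLA-DRB6, a transcribed pseudogene of the DR region, was at 1.91 ± 0.310 FPKM in TKO, 1.33 ± 0.0398 in WT, 2.39 ± 0.299 in D1240A and 2.01 ± 0.328 in F1295A.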
